A study of Mus musculus with 8 samples.

Results

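The interferon regulatory factors (IRFs) are transcription factors that share a DNA-binding domain and recognise related elements in the promoters of interferon genes and of genes induced by interferon. The genes examined were Irf1, Irf2, Irf3, Irf4, Irf5, Irf7, Irf8 and Irf9, taken by symbol, which gave 8 of the 34478 genes in the expression table. RNA-seq was performed on 4 primary murine pancreatic ductal adenocarcinoma (PDAC) cell lines, named #1, #3, #5 and #10, each grown with trametinib, an inhibitor of the kinases MEK1/2 (MEKi), or with the solvent DMSO. All lines came from tumours of mice in which Ptf1a-driven Cre recombinase acts in the pancreas (Ptf1awt/Cre) and, among other alleles, deletes Trp53 (Trp53loxP/loxP), so DMSO and trametinib libraries shared the same genotype. Trametinib was given for 48 h at the half-maximal inhibitory concentration of each line, so that the dose was not the same in every line, and each line gave 1 DMSO and 1 trametinib library. The replicates were therefore the 4 cell lines, and each line was compared with itself.

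In the textbook scheme, Irf3 and Irf7 are held in the cytosol until sensors of viral RNA or DNA activate the kinases Tbk1 and Ikbke, after which they switch on interferon genes. Secreted interferon acts through the receptors, the Janus kinases and the complex ISGF3, which contains Stat2 and Irf9, while Irf1 is induced by interferon gamma and drives antigen presentation genes, and Irf2 binds the same elements and often opposes it. Irf4, Irf5 and Irf8 are best known from lymphoid and myeloid cells, where Irf8 acts with the factor Spi1.

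The summed normalized counts of the 8 libraries lay between 30680091 and 36385719, and the smallest steps between low values put the depth at about 29300000 to 46000000 reads per library. A count of 3 reads, the least taken as above background, was worth 2.32 to 3.72 normalized counts, and this covers counting error only. Dusp6, a direct output of the MAPK pathway and the check of the treatment, fell from 7011 ± 2055 to 1310 ± 670 (mean ± SD over 4 lines), or by 2.51 on the log2 scale, and 9 of 10 MAPK output genes fell, where 25.6% of all tested genes were called lower and 27.3% higher (adjusted p under 0.05 in limma). The summed level of 8 ductal epithelial markers was 222200 to 350400 with DMSO and 114100 to 222600 with trametinib, and 5 of the 7 tested fell. Of the leukocyte markers, 17 of 20 listed were in the table and summed to 1172 to 2709 with DMSO and 1438 to 3837 with trametinib. Most of that sum was Cd14, at 907 to 2435 with DMSO and 1059 to 3571 with trametinib, so it is not a level of the whole list. Ptprc, which defines leukocytes, was read at 4.05 to 17.2 in all 8 libraries, and Cd3e, a T cell marker, at no more than 0.488. The 8 fibroblast markers summed to 94.9 to 366 with DMSO and 440.0 to 1258 with trametinib, and 1 of 5 tested was higher, beside that 27.3% of all genes. The gene called was Col1a1, a collagen chain, which went from a mean of 74.1 to 876, while Lum was listed at 0 in every library and Dcn stayed between 3.65 and 36.6.

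The family was led by Irf3, Irf1, Irf2 and Irf9. On the scale of normalized counts per kb of exon, which allows genes of different length to be compared, Irf3 was the highest with DMSO at 346 ± 49.7 (SD, n = 4 lines), followed by Irf1 at 224 ± 38.6, Irf2 at 143 ± 13.8 and Irf9 at 85.4 ± 28.1. Irf7 was at 8.86 ± 10.7, Irf8 at 1.99 ± 1.78 and Irf5 at 1.48 ± 0.899 per kb, and Irf4 was listed at 0. In each library, these leading 4 genes held 97.2 to 99.3% of the summed per-kb level of the family with DMSO and 95.8 to 98.5% with trametinib. The ranges of neighbours in the DMSO order overlapped for Irf2 and Irf9, although Irf2 was above Irf9 in all 4 lines, for Irf7 and Irf8, and for Irf8 and Irf5. With trametinib, Irf9 at 141 per kb stood above Irf2 at 105 in 3 of 4 lines, with overlapping ranges. The ranges with trametinib also overlapped for Irf3 and Irf1, for Irf7 and Irf5, and for Irf8 and Irf4. When the longest transcript was used as the length, Irf2 and Irf9 both came to 197 per kb with trametinib, so that exchange of places depended on the length chosen.

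**Figure D1:**
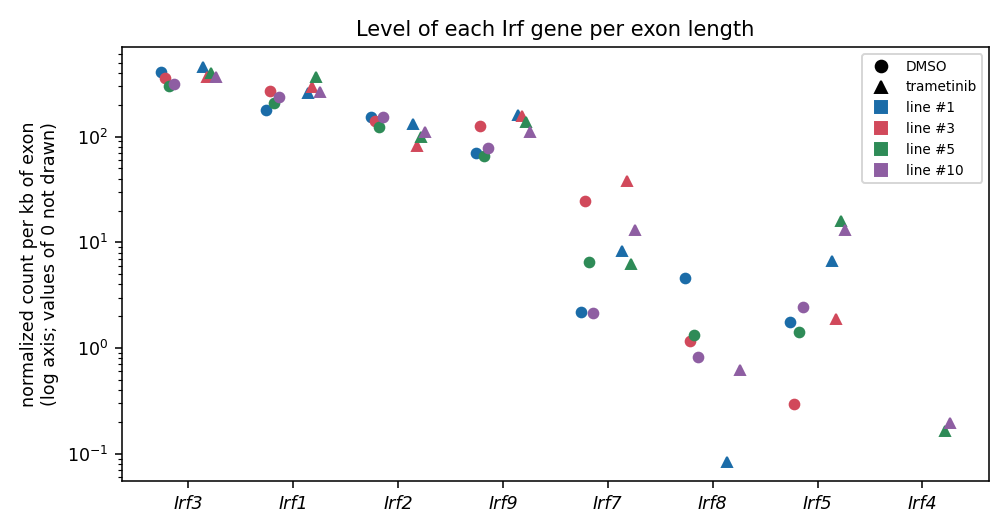
Level of each IRF gene in normalized counts per kb of exon (log axis, values of 0 not drawn) in the 4 lines, with circles for DMSO and triangles for trametinib. Irf3, Irf1, Irf2 and Irf9 lie above Irf7, Irf8, Irf5 and Irf4 in each group.

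Of the 8 genes, 6 had a mean of at least 10 normalized counts over the libraries and entered a limma model that paired the libraries of each line. The p-values were adjusted over all 15888 tested genes by the method of Benjamini and Hochberg. Irf1, Irf5 and Irf9 passed as higher with trametinib and Irf2 as lower, whereas Irf3 and Irf7 did not pass. This count of 4 of 6 is set against a background of 53% of all tested genes that changed in either direction, 27.3% as higher and 25.6% as lower. Irf5 entered this count only through its trametinib libraries (DMSO mean 4.29), and Irf8, with a DMSO mean of 14.0, was left out because of its low trametinib values, so the count is not support for a direction. The share of IRF genes called is near the background, and the members are described one by one. In none of the 6 tested genes were the ranges of DMSO and trametinib libraries separate, against 31.3% of all tested genes. All values are of whole cultures, so fewer cells of a type and less RNA per cell cannot be told apart.

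**Figure D2:**
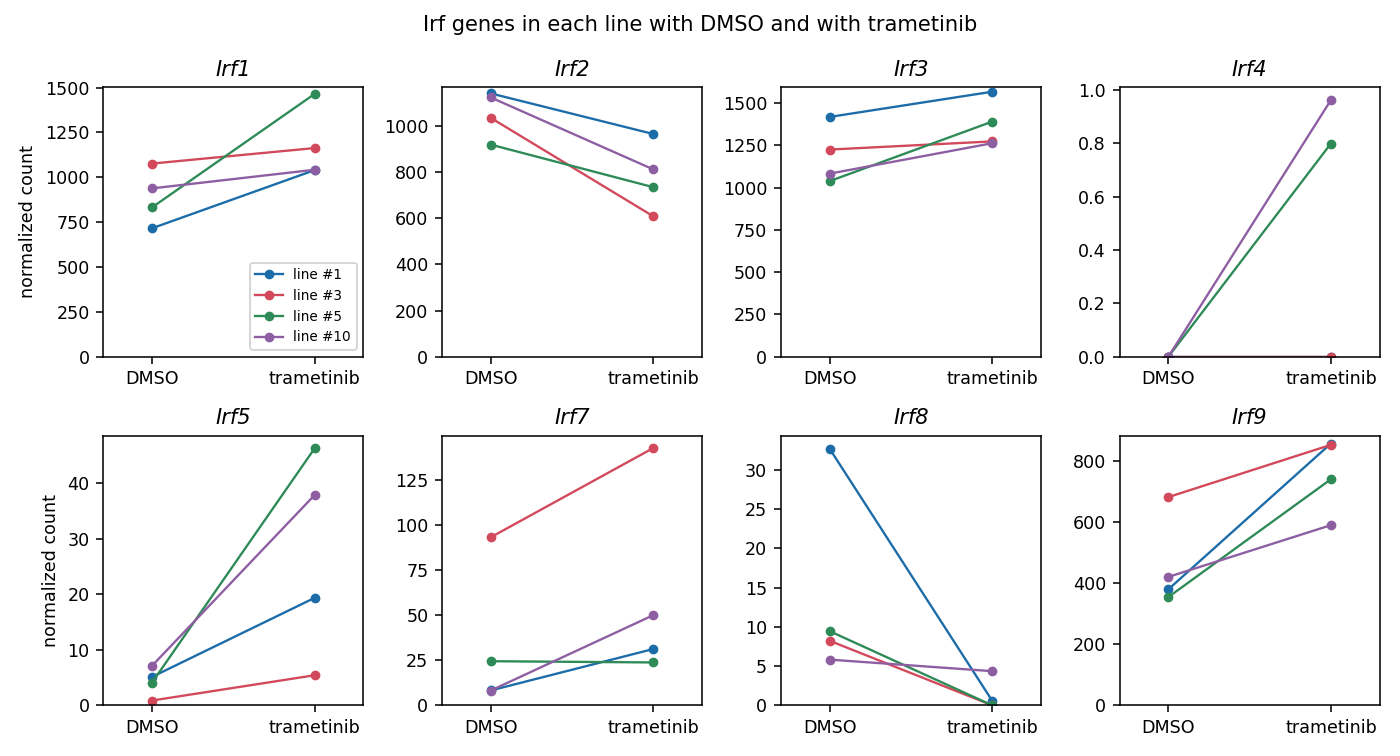
Normalized counts of each of the 8 IRF genes (vertical axis) in every library, with a line joining DMSO and trametinib of the same cell line. Irf9 is higher and Irf2 lower with trametinib in each of the 4 lines, and Irf8 is near the floor with trametinib.

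Irf1 and Irf2, the activator and its antagonist, moved apart. Irf1 lies at chr11:53770014-53778374 on the plus strand (GRCm38, GENCODE gene limits) and Irf2 at chr8:46739732-46847458, also on the plus strand. Windows of 300 bases around annotated start sites (250 before and 50 after) were taken from RefSeq on GRCm38.p6 for all 8 genes, 11 windows in all. They were searched on both strands for the letters of the GAS element bound by STAT dimers (TTCNNNGAA), of an IRF element (GAAANNGAA), of the AP-1 element (TGANTCA) and of an ETS element (CCGGAAG). Of 32851 RefSeq promoter windows of this length, 8.3% held the GAS letters, 8.56% the IRF letters, 7.81% the AP-1 letters and 8.86% the ETS letters. Windows with any match numbered 3 of the 11, and they are shown here since they are those of Irf1, Irf2 and Irf8, with the matches in capitals. The Irf1 window (chr11:53769764-53770063, plus strand) holds 1 GAS match, the Irf2 window (chr8:46739495-46739794, plus strand) an IRF and a GAS match, and the Irf8 window (chr8:120736108-120736407, plus strand) 2 GAS matches.
Irf1: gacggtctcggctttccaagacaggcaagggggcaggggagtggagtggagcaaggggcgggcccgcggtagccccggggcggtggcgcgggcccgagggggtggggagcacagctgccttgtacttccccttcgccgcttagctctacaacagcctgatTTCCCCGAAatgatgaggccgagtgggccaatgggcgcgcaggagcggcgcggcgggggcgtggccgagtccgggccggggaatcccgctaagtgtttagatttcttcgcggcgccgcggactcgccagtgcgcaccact
Irf2: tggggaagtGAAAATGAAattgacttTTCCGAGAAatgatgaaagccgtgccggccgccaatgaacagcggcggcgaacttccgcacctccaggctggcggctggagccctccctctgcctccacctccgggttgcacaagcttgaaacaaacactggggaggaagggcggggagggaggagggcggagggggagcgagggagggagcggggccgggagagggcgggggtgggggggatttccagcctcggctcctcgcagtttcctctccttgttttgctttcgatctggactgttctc
Irf8: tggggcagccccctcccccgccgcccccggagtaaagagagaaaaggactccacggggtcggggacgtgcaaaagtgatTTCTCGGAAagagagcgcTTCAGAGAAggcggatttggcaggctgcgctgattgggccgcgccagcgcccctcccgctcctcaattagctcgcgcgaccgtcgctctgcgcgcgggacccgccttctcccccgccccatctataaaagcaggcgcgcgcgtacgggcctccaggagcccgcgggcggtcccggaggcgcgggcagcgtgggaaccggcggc
A match describes the letters only and is neither a binding site nor a cause of what was measured.

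Irf1 stood with DMSO at 716, 1076, 832 and 938 normalized counts in lines #1, #3, #5 and #10, and with trametinib at 1040, 1163, 1464 and 1042. It was higher with trametinib in each line, most in line #5 and least in line #3, and the ranges of the groups overlapped. The mean rose from 891 ± 154 to 1177 ± 200 (SD over 4 lines), which was 0.40 on the log2 scale with a standard error of 0.14 (adjusted p = 0.0488 in limma). That call is marginal: it was lost in 9 of 14 alternative analyses, including those without line #1, #5 or #10, with adjusted p from 0.0193 to 0.178, and without line #5 the log2 fold change was 0.27. Irf2 stood with DMSO at 1141, 1035, 919 and 1124 and with trametinib at 965, 609, 735 and 812. It was lower in every line, most in line #3, and only line #1 with trametinib reached into the DMSO range. The mean fell from 1055 ± 102 to 780 ± 149, a log2 fold change of -0.45 with a standard error of 0.12 (adjusted p = 0.0174). It lost the call when libraries were scaled to equal totals (adjusted p = 0.0555), without line #10 (0.0664) and without the block (0.082).

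The ratio of Irf1 to Irf2 does not depend on any single factor by which a library is scaled. With DMSO it was 0.627, 1.04, 0.905 and 0.835 in lines #1, #3, #5 and #10, and with trametinib 1.08, 1.91, 1.99 and 1.28. The ratio was higher in all 4 lines, by 0.85 ± 0.22 on the log2 scale (SD, n = 4), and no trametinib value lay below the highest DMSO value of 1.04. Since it is built from the calls above, it is given as a description.

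**Figure D3:**
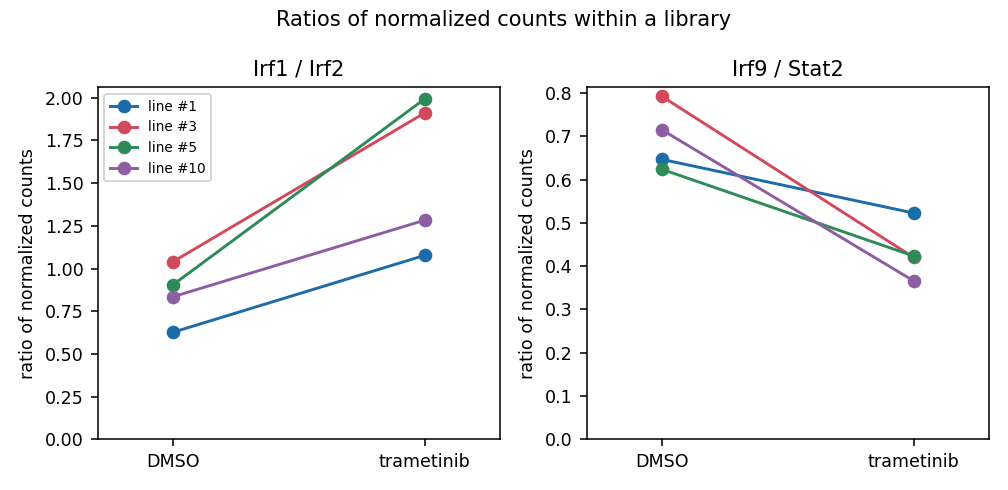
Ratios of normalized counts in each of the 4 cell lines with DMSO and with trametinib, for Irf1 over Irf2 and Irf9 over Stat2. The first is higher and the second lower with trametinib in all 4 lines.

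Irf9, the DNA-binding subunit of ISGF3 (chr14:55603571-55610030, plus strand), rose with trametinib. It stood at 380, 683, 355 and 421 normalized counts with DMSO and at 858, 854, 741 and 591 with trametinib. Line #3 was already the highest with DMSO and changed least, and its DMSO value lay above the trametinib value of line #10, so that the ranges overlapped. The mean rose from 460 ± 151 to 761 ± 126 (SD over 4 lines), which was 0.76 on the log2 scale with a standard error of 0.17 (adjusted p = 0.00965), and the call held in all 14 alternatives, with adjusted p up to 0.0442. Exons of Irf9 share 123 bases, 2.3% of its exon length, with Rnf31 on the same strand. For Rnf31 the difference was 0.28 on the log2 scale (adjusted p = 0.0684).

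Its partner Stat2 rose as well, from 652 ± 140 to 1760 ± 191, a log2 fold change of 1.45 (adjusted p = 0.000229). The ratio of Irf9 to Stat2 was 0.647, 0.792, 0.624 and 0.715 with DMSO and 0.523, 0.420, 0.424 and 0.366 with trametinib, lower in all 4 lines by 0.69 ± 0.31 on the log2 scale. Of the 10 interferon receptors, JAKs and STATs, 8 rose and none fell, with a median log2 fold change of 0.58. Over all genes tested, 27.3% rose, 25.6% fell and the median was 0.07. Stat3, which carries signals of the interleukin-6 family, was second to Stat2 with 1.12.

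Irf3 (chr7:44997648-45002848, plus strand), which is made in most cells and regulated by phosphorylation, stood at 1418, 1225, 1038 and 1083 with DMSO and at 1567, 1273, 1390 and 1262 with trametinib. The trametinib value was above the DMSO value in each line, by little in line #3. The log2 fold change was 0.21 with a 95% interval of -0.02 to 0.44 and did not pass (adjusted p = 0.113), although it did so with libraries scaled to equal totals (0.34, adjusted p = 0.0275). Irf7 (chr7:141262706-141266481, minus strand), the inducible factor that amplifies interferon alpha production, stood at 8.21, 93.1, 24.4 and 8.18 with DMSO and at 31.2, 142, 23.7 and 49.9 with trametinib. It was higher in lines #1, #3 and #10, while line #5 differed by less than 1 normalized count. The log2 fold change of 1.21 had a wide 95% interval of 0.14 to 2.28 and did not pass (adjusted p = 0.0588). It passed with equal totals (adjusted p = 0.0414) and without line #5, where it was 1.63 (adjusted p = 0.0316), and it was 0.79 without line #10.

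The kinases of Irf3 and Irf7 differed from each other in call. Ikbke rose from 845 ± 285 to 1268 ± 429, a log2 fold change of 0.58 (adjusted p = 0.012), and was higher in 4 of 4 lines. For Tbk1 the difference was 0.25 on the log2 scale (adjusted p = 0.0523) and was higher in 4 of 4 lines too, and the difference between the kinases was not tested. Of 22 tested sensors, adaptors and kinases that act upstream of IRFs, 7 rose and 4 fell, with a median of 0.13, beside 27.3% higher and 25.6% lower over all tested genes. The RNA sensors Ddx58 (1.94) and Ifih1 (1.92) rose most on the log2 scale, whereas Mb21d1, which encodes the DNA sensor cGAS, fell by 1.09 and Dhx58, a relative of the RNA sensors, fell by 1.01. Of 21 interferon genes listed, the products of this branch, only 8 were in the table, and the others have no value to read. Those 8 were at or near 0 in most libraries, and none was abundant enough to be tested. Ifnb1, Ifng and Ifna13 were listed at 0 in every library. The highest value was 44.9 for Ifne in line #3 with DMSO, against 17.1 there with trametinib.

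Irf5, Irf8 and Irf4, the members known from immune cells, were all low. Irf5 (chr6:29526625-29541871, plus strand), which acts downstream of Toll-like receptors, stood at 5.11, 0.855, 4.09 and 7.11 normalized counts with DMSO and at 19.3, 5.41, 46.2 and 37.8 with trametinib. It was higher in each line, and only line #3 with trametinib lay within the DMSO range. The log2 fold change on the log2(value + 1) scale was 2.25 with a standard error of 0.41 (adjusted p = 0.00395), and 2.25 without a filter (adjusted p = 0.00933). Irf5 had a DMSO mean of 4.29 and passed the filter only through its trametinib libraries, so that its selection favoured a difference in this direction. Its exons overlap those of Tnpo3 on the opposite strand over 411 bases, 14.1% of its exon length. Tnpo3, a far more abundant gene, fell by 0.53 on the log2 scale, the opposite direction (adjusted p = 0.0017). Whether strand was used in counting is not given in the sources used here.

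Irf8 (chr8:120736358-120756694, plus strand), a factor of myeloid and dendritic cells, was lower with trametinib in all 4 lines. It stood at 32.7, 8.22, 9.45 and 5.82 with DMSO, which is about 42.2, 7.94, 7.62 and 6.09 reads. The trametinib values were 0.594, 0, 0 and 4.35 in the same order of lines. Each DMSO library was above each trametinib library, but the values of line #10 lay close together. With a mean of 7.64 it lay below the filter and was not tested in the chosen design, and no fold is given because 2 trametinib libraries are listed at 0. Without a filter it was called as lower (adjusted p = 0.0232). Irf4 (chr13:30749226-30766976, plus strand), a lymphoid factor, was listed at 0 in all DMSO libraries and in lines #1 and #3 with trametinib, and at 0.799 and 0.962 in lines #5 and #10, about 1 read each. Beside these genes, Csf1r, the receptor of a macrophage growth factor, was the 1 leukocyte marker called among 6 tested, with a log2 fold change of 2.83, and its part in the Irf5 and Irf8 values was not tested. Of 9 tested partners of Irf4 and Irf8, 3 rose and 2 fell, beside the same 27.3% and 25.6% of all genes. The AP-1 subunits Jun (1.76) and Jund (1.02) were higher on the log2 scale, and Nfatc1 fell by 0.76. Batf2, an interferon-inducible partner, was at 15.4, 65.6, 16.0 and 38.2 with DMSO and at 1.29, 1.38, 1.77 and 3.05 with trametinib, below the floor of 3 reads in 3 of 4 libraries, and was tested only through its DMSO libraries.

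**Figure D4:**
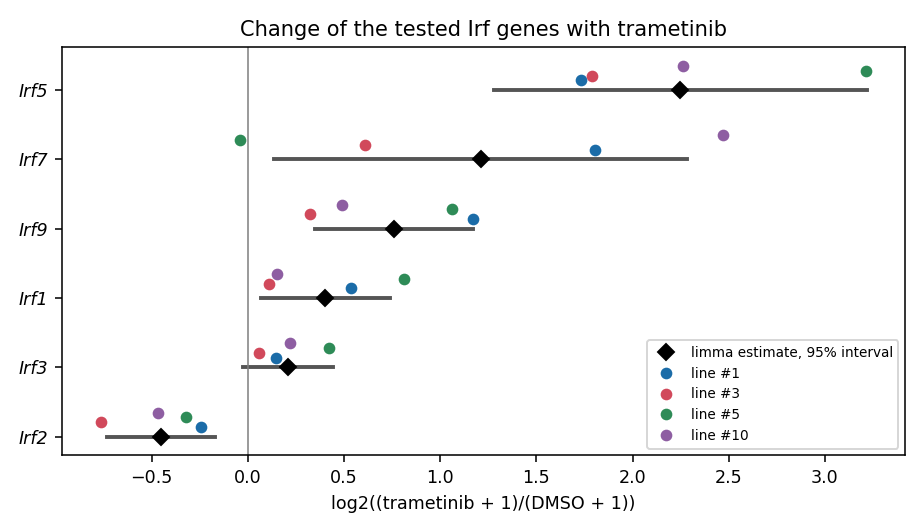
Log2 change with trametinib on the log2(value + 1) scale for the 6 tested IRF genes, with each cell line as a point and the limma estimate with its 95% interval, which is not adjusted for the number of genes. The intervals of Irf1, Irf5, Irf7 and Irf9 lie above 0, that of Irf2 below 0, and that of Irf3 includes 0.

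The level of the IRF genes was also compared between the cell lines. In the moderated F test of limma over the line terms, only Irf7 of the 6 tested genes passed (adjusted p = 0.0497), where 27.6% of all tested genes did. Irf7 was highest in line #3 with either treatment, and the mean log2 level of the lines spanned 2.75. Without line #3 the F fell from 7.74 to 0.343, and the call held in 6 of 12 alternatives, so that it rests on that line and is marginal. For Irf5 the span was 2.36, with line #3 the lowest, and the test did not pass (adjusted p = 0.0575). For Irf1, Irf2 and Irf3 the lines spanned 0.35 to 0.40 on the log2 scale and for Irf9 0.61. Tmem173, the gene of the DNA pathway adaptor STING, also had its highest values in line #3, at 2238 with DMSO and 2044 with trametinib, beside 142 to 439.6 in the other libraries.

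The pattern of each tested IRF gene over the 8 libraries was compared with that of every other tested gene by Pearson's r, as a description, since the libraries share treatment and lines. Irf9 was most like Gm37092 (r = 0.99) and 2610008E11Rik (0.98), and Irf5 like Map3k20, Herc3 and Gm19705 (each 0.98). Irf1 was most like Svil (0.97), AU041133 (0.96) and Zfp758 (0.93), and Irf2 like Gm11249 and Papss1 (each 0.98). Irf3 was closest to Fam219a (0.97), Myo9a and Otud5 (each 0.96), and Irf7 to Rcsd1, Jmjd8 (each 0.97) and Pts (0.96). With r above 0.9, Irf2 had 272 such genes, Irf5 174, Irf9 122, Irf7 70, Irf3 25 and Irf1 21. The number for genes outside the family was not determined.

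The genes downstream were examined from lists of known targets. Of 40 ISGF3 targets 34 were tested, and 19 rose and 1 fell, with a median log2 fold change of 0.95, beside 27.3% higher and 25.6% lower over all genes. Of the 19, 3 had a DMSO mean under 10 and were tested only through their trametinib libraries, which leaves 16. Without Irf7 and Irf9, which are on the list, 18 of 32 rose and 1 fell. Ifit3, which binds viral RNA complexes, rose from 19.2 ± 18.1 to 104 ± 54.6 (SD over 4 lines), which was 2.64 on the log2 scale (adjusted p = 0.00105), and Parp14, an ADP-ribosyltransferase, had 2.52. Oasl1, an inhibitor of Irf7 translation, was the 1 that fell, from 393 ± 124 to 223 ± 138 (-1.01, adjusted p = 0.0134).

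Of 38 listed Irf1 targets, 23 were tested, and 10 rose and 4 fell, with a median of 0.39, where 27.3% of all genes rose and 25.6% fell. C3, the central complement component, rose by 2.68 on the log2 scale, and Tap2, a subunit of the peptide transporter for class I antigen presentation, to 45.4 ± 28.7 from 14.4 ± 14.0 normalized counts. Socs1, an inhibitor of Janus kinases, fell from 67.9 ± 36.5 to 12.6 ± 7.24 (-2.37, adjusted p = 0.00909), and Psmb10, an immunoproteasome subunit, fell by 1.53. The number of Irf1 targets called higher was 6 without line #1 and 6 without line #5. The lists share 2 of the tested genes.

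Among 17 brakes on IRF proteins and on interferon signalling, 5 rose and 7 fell, against 27.3% and 25.6% of all genes, with a median of -0.33. Usp18, which blocks interferon receptor signalling, was at 3.96 to 8.21 with DMSO and at 9.89 to 48.6 with trametinib and was tested only through the latter, and Trim21, a ubiquitin ligase for IRF proteins, went from 64.5 ± 31.1 to 148 ± 58.5 normalized counts (adjusted p = 0.00577). Socs1, described above, is on this list too. Of the Irf2-binding co-factors, Irf2bpl rose by 0.53 on the log2 scale, whereas Irf2bp1 fell by 0.74 and Irf2bp2, a co-repressor that binds Irf2, by 0.49. Irf2 and its partner Irf2bp2 were therefore both lower, in 4 of 4 lines each.

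**Figure D5:**
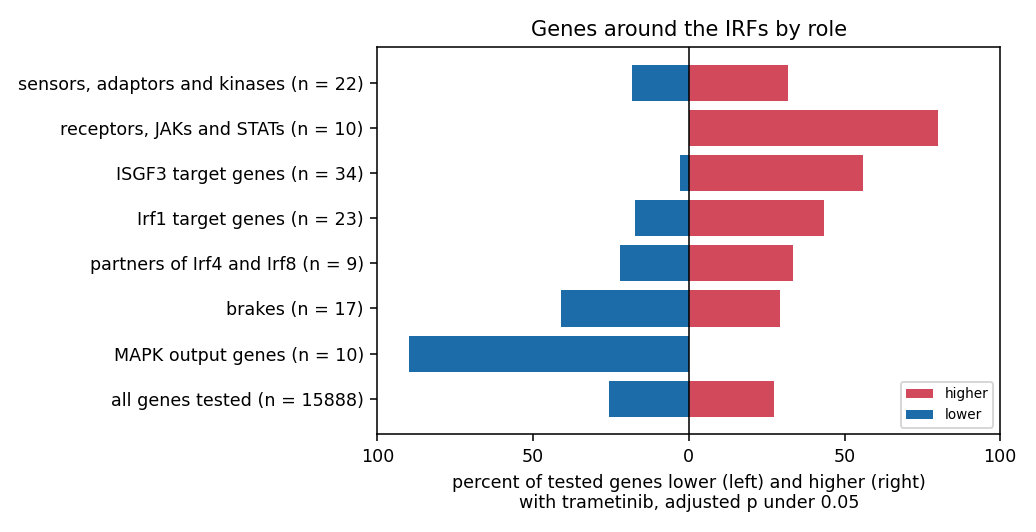
Bars give the percent of tested genes called higher (right) and lower (left) with trametinib in limma, for 7 lists of genes around the IRFs and for all 15888 tested genes. Of the ISGF3 targets 19 of 34 were higher and 1 lower, and of the MAPK output genes 9 of 10 were lower, beside 27.3% higher and 25.6% lower over all genes.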

How the data were processed

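RNA-seq (TruSeq Stranded mRNA) was available for 8 libraries, 1 with DMSO and 1 with trametinib from each of 4 murine PDAC lines. The authors deposited normalized counts per gene symbol, which is a signal scaled between libraries and not raw counts. The submitters' processing notes name CASAVA 2.17, Salmon 0.12, DESeq2 1.18 and mm10, and how genes were summed and whether strand was used is not given in the sources used here. Because the values are not whole reads, no count model was used. Depth was estimated from the smallest steps of the values.

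Values were analysed with limma 3.58.1 (R 4.3.3) as log2(value + 1), so that folds of low genes are understated, for genes with a mean of at least 10, with the cell line as a block, an eBayes trend and Benjamini-Hochberg adjustment at 0.05, two-sided. Differences between lines were tested with the moderated F of the same fit. The block comes from the labels, which give both libraries of a line the same number. Deviations from group means correlated at 0.631 to 0.724 within lines and at -0.313 to -0.0158 between lines. On simulated data over 15928 genes, 172 of 196 changed genes were recovered with 2 false calls. The simulated counts had a single fixed dispersion, and a changed gene changed equally in every line. In the data 53% of tested genes were called for treatment. The simulation called 63.2% of genes for line, against 27.6% in the data. It therefore checks that the code runs and does not give the recovery or false calls for these data. The labels do not give further cultures. The block removes the level of each line, so the treatment p-values rest on how the change differed between these lines. That residual includes the error of single libraries and is moderated over genes. The F test between lines uses the same residual and not replicate cultures of a line.

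The named genes were the 8 IRF genes, the 3 genes most like each tested IRF gene, of each list the 2 genes with the largest rise and fall past the threshold, and Stat2, Tbk1, Ikbke, the Irf2bp genes and Dusp6. Some items that this rule names are not reported here. Tmem173, Csf1r, the interferon genes and the genes overlapping an IRF gene were added after their values were seen. The members and lists were chosen with earlier results of these data known. Lists of markers were used for leukocytes, ductal epithelium, acinar cells, fibroblasts and endothelium. Acinar markers summed to 24.8 to 247 with DMSO and 16.5 to 125 with trametinib, and endothelial markers to 17.5 to 56.4 and 31.6 to 72.5. Lengths and positions came from GENCODE on GRCm38 and start site windows from RefSeq. Alternatives were other pseudocounts, scalings, filters and variance models, no block, and each line left out.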

Additional observations from a re-analysis of the deposited data

Results flagged for a closer look

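In line #1 with DMSO, Irf8 was at 32.7 normalized counts, far from the 5.82 to 9.45 of the other DMSO libraries. With trametinib, line #10 was at 4.35 Irf8 counts, where the other libraries were at 0 to 0.594. Of 23 groups of 4 libraries searched for such a distant value, 2 had one, and chance gives about 1 in 20, or 1.15. Irf7 changed by -0.039 on the log2 scale in line #5 and by 0.61 to 2.47 in the other lines, opposite in sign, and this difference was not tested.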

How the results depend on the processing

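No result changed direction in a called value. Irf9 kept its call in all 14 alternatives. With libraries rescaled to equal totals, 5 IRF genes were higher and 0 lower, the median log2 fold change of all genes moved from 0.07 to 0.20, and 5333 genes were higher and 3285 lower, or 61.9% of calls higher against 51.6%. The balance went the other way after quantile normalization (3779 higher and 4233 lower, 47.2%) and median centring (3848 and 4492, 46.1%). Without a filter, 2 IRF genes were lower. With no replicate block, which ignores the pairing by line, 0 IRF genes were lower, and 2205 genes were higher and 2347 lower in all. Over all lists and alternatives there were 21 moves of a list count by over 1.5 times. Of these moves, 10 came without the block, where 9 ISGF3 targets and 3 Irf1 targets were higher. With each line left out in turn, 2 to 3 IRF genes were higher and 0 to 1 lower. The count of IRF genes that differed between lines was 0 at a pseudocount of 0.1, after quantile normalization, without a filter, at a filter of 50, where Irf7 was not tested, and without a trend, and 0 to 1 with a line left out. Over all genes, 2862 differed between lines without a filter, 1879 without a trend, and 2028 to 4558 with a line left out. With the longest transcript as the length, 9 of 16 per-kb levels moved by more than their SD. The causes were not tested. Depth limits Irf4, Irf5 and Irf8, which were at few reads in at least 1 group.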
